A study of Homo sapiens with 6 samples.

Results

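RAB GTPases are the largest branch of the RAS superfamily and mark the membranes between which vesicles move. The 61 RAB genes described here were all rows, among 26255 gene rows, whose symbol is RAB followed by a number and at most 1 letter from A to F. Their messenger RNA was measured in HT29 cells, an established human cell line of colorectal adenocarcinoma origin. The cells had been kept for 24 h with YM155, a small molecule known for suppressing survivin expression, or with DMSO, the usual solvent of such compounds. Sample titles spell the compound YM115 and the treatment label YM155, and the name in the treatment label is used here. Each treatment had 3 libraries. The labels call them triplicates and do not say if separate cultures were used, and the spread between libraries behind each p-value may therefore be technical only. The question was which RAB messages differ in level between cells given YM155 for 24 h and cells given DMSO.

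A RAB protein works as a switch. Guanine nucleotide exchange factors (GEFs) load it with GTP on its own membrane, where it recruits effectors such as tethers, motors and coat regulators, and GTPase-activating proteins (GAPs) turn it off. A lipid (prenyl) anchor added by RAB geranylgeranyl transferase with its escort proteins holds the RAB on the membrane, and GDP dissociation inhibitors carry it back to the cytosol. In gut epithelium RAB proteins are known for recycling to the apical surface (RAB11 and RAB25 with myosin Vb) and for release of granules from goblet and other secretory cells (RAB3 and RAB27). The genes were placed by the main site of their protein into secretory (12 genes, of which 8 act at granules and 4 in delivery to the surface), endosomal (24 genes, of which 7 early, 10 recycling and 7 late), Golgi (17 genes, from endoplasmic reticulum (ER) to Golgi) and other genes (8). Many RAB proteins act at more than one site, so each class is a simplification.

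Levels are FPKM as the authors deposited them, fragments per kilobase of transcript and scaled to library size, so genes can be compared per length. FPKM values of all genes summed to 684616 ± 9919 per YM155 library and 547222 ± 13938 per DMSO library (SD, n = 3 each). The files give no read totals. In the steps between low values 1 read was worth 1.52 to 1.78 times as much in the YM155 libraries as in DMSO replicate 1. In DMSO replicates 2 and 3 it was worth 0.997 to 1.11 times as much. The YM155 libraries would be the shallower ones if FPKM was scaled by read totals, but the library size used is not given. Of 10 markers of colorectal epithelium 8 were at 1 FPKM or more on average with YM155 and 9 with DMSO (not CDX1). Of the markers of other tissue cells, 6 of fibroblasts summed to 0.103 to 0.135 FPKM with YM155 and 0.269 to 0.358 FPKM with DMSO, 4 of endothelium to 0.138 to 0.250 FPKM with YM155 and 0.0495 to 0.144 FPKM with DMSO, and 6 of leukocytes to 2003 to 2145 FPKM with YM155 and 1816 to 2081 FPKM with DMSO. The leukocyte sum was LYZ, at 1921 to 2056 FPKM with YM155 and 1809 to 2075 FPKM with DMSO, and CD68, a lysosomal membrane protein, at 78.9 to 87.8 FPKM with YM155 and 3.81 to 5.56 FPKM with DMSO. PTPRC, carried by leukocytes in general, was under 0.05 FPKM in every library, and HLA-DRA was at 0. Libraries of 1 group correlated at 0.992 to 0.994 across genes, and libraries of different groups at 0.860 to 0.878.

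Most RAB genes changed. For 45 of 61 RAB genes 3 or more of the 6 libraries reached 1 FPKM, and these were tested on the log2(FPKM + 1) scale with limma, with a threshold of 0.05 for the p adjusted over all 12035 genes tested. Of these, 27 rose, 10 fell and 8 did not pass. Among all 12035 genes 43.6% rose and 41% fell (84.7% either way), so that changing at all was the rule and the count of changed RAB genes lies near it. The median log2 fold change was 0.33 over the tested RAB genes and 0.024 over all genes. A log2 fold change of at least 1 was reached by 6 RAB genes (15.9% of all genes), and one of at most -1 by 5 (11.8% of all genes). The groups did not overlap for 37 of the 45 (85.9% of all genes). These figures rest on the deposited scale. With upper-quartile scaling 19 RAB genes rose and 16 fell (31.3% and 54.7% of all genes, 86% either way), with rescaling to a common FPKM sum again 19 and 16 (31.8% and 53.4%, 85.2% either way), and with quantile normalization 22 and 16 (38.6% and 45.6%, 84.2% either way). With cyclic loess, which removes the trend with abundance and was chosen after seeing the data, 22 rose and 13 fell (40.8% and 42.2%, 83% either way). The first 3 settings moved the median of all genes by -0.31, -0.28 and -0.11. Upper-quartile and common-sum scaling multiply all genes of a library by 1 factor, so a sign or a call that turned there is also given after subtracting the median over all genes.

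Granule genes were mostly lower with YM155 and endosomal genes mostly higher, where over all genes 43.6% rose and 41% fell. Those shares varied with abundance. Of all genes with a mean under 5 FPKM 24% rose and 58% fell, and of those with 20 to 50 FPKM 59.1% rose and 28.3% fell. Of 7 tested granule genes 5 fell and 1 rose, and their median log2 fold change was -0.84, which is the value of RAB37. Without DMSO replicate 3, where 5 granule genes could be tested, the median was -0.48. Of 11 tested secretory genes, granule and surface together, 3 rose and 6 fell, with a median of -0.56. Without DMSO replicate 1, 2 or 3, where 9 secretory genes could be tested, that median was -0.048, -0.0031 and 0.019. Of 20 tested endosomal genes 16 rose and 2 fell, with a median of 0.60, and 11 rose with each of upper-quartile, common-sum, quantile and loess scaling. Of 9 tested Golgi genes 5 rose and 1 fell, with a median of 0.28. Without a filter on low values 5 of 17 Golgi genes rose and 5 fell. The Golgi genes added there were at 1.17 FPKM or less in every library, and the shares of all genes were not counted in that setting. The medians were then 0.0051 for Golgi, -0.70 for granule and 0.33 for endosomal genes, against -0.015 over all genes. Set against the median over all genes tested, the granule, endosomal and Golgi medians were -0.86, 0.57 and 0.25 as deposited, -0.73, 0.54 and 0.21 with upper-quartile scaling, -0.74, 0.54 and 0.21 with a common sum, and -0.38, 0.31 and 0.15 with quantile normalization. No test of a class as a whole was made. RAB27A and RAB37 were under 1 FPKM in every YM155 library and so were tested because of their DMSO values, which means that they had to differ and that the granule counts are a description.

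**Figure D1:**
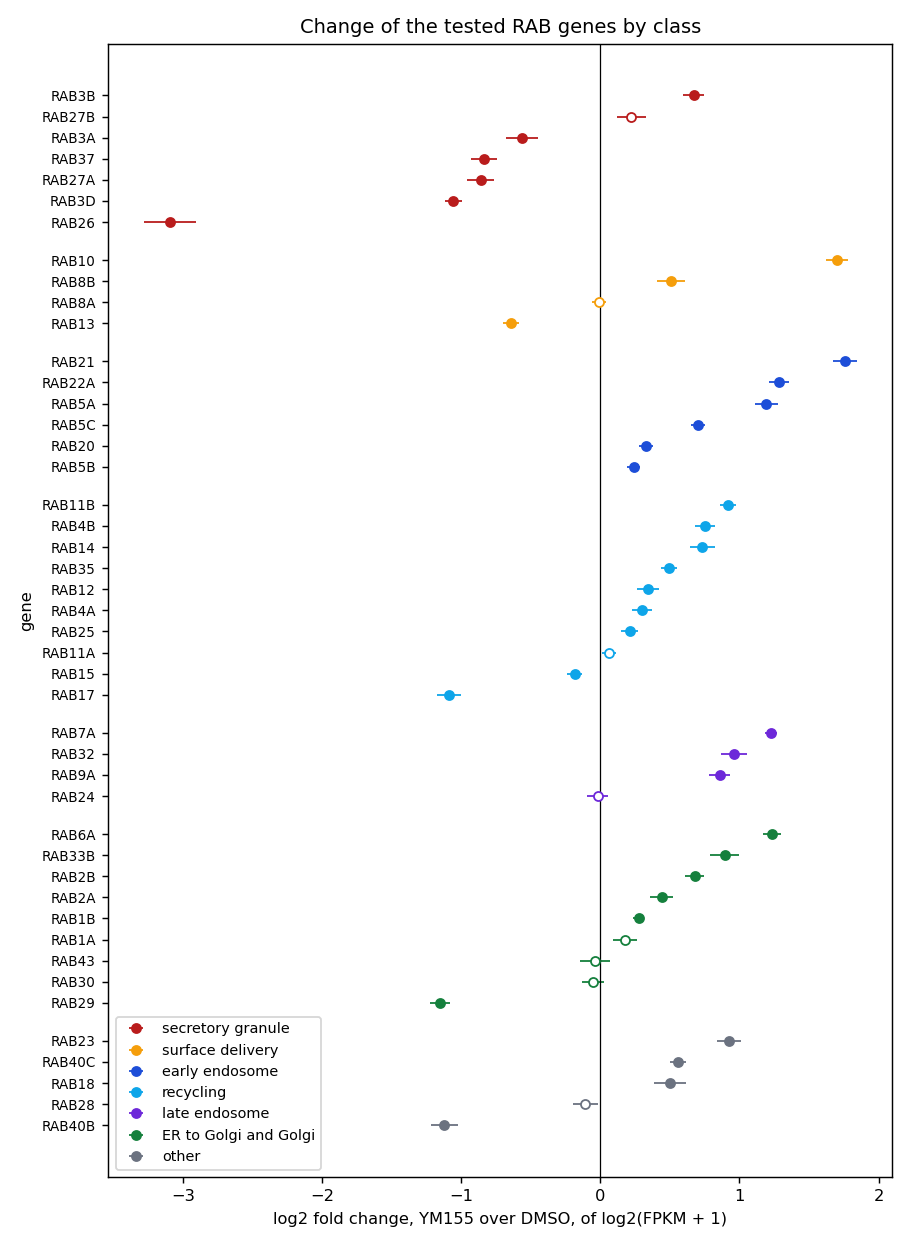
Log2 fold change of YM155 over DMSO on the log2(FPKM + 1) scale (x axis) for each of the 45 tested RAB genes (y axis), in order of size within each class, as limma estimates from 3 libraries a group with their SE (filled, adjusted p under 0.05; open, not passed). The granule genes reach from -3.09 (RAB26) to 0.67 (RAB3B), whereas all 6 early endosome genes lie to the right of 0, at 0.24 to 1.76.

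The classes also differed in abundance, and in these libraries change went with abundance. Tested granule genes had a median level of 2.76 FPKM over all libraries, Golgi genes 7.96 and endosomal genes 24.96, against 11.0 FPKM for all genes tested. Over all genes with a mean under 5 FPKM the median log2 fold change was -0.41, and with 50 FPKM or more it was 0.33. Among RAB genes the same medians were 0.36 (10 genes) and 0.70 (9 genes). Between them the RAB genes lay nearer to all genes. With 5 to 20 FPKM the medians were -0.019 for 15 RAB genes and 0.066 for all genes. With 20 to 50 FPKM they were 0.44 for 11 RAB genes and 0.32 for all genes. The part of abundance in the difference between classes was not tested. With cyclic loess, chosen after seeing the data, the medians were -0.36 for granule, 0.27 for endosomal and 0.11 for Golgi genes. As deposited they were -0.84, 0.60 and 0.28.

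Promoters are shown for the 3 genes that rose most and the 3 that fell most, among changed genes with 1 start in the RefSeq table, and for RAB7A, the most abundant RAB gene with YM155, so that the genes that moved furthest can be compared by sequence. RAB26, which fell most, is not in that table. Each is the 250 bases before the start, 5′ to 3′ on the gene's strand (RefSeq, GRCh38.p14): RAB21 chr12:71754613-71754862 (+), RAB10 chr2:26033834-26034083 (+), RAB22A chr20:58309465-58309714 (+), RAB7A chr3:128725933-128726182 (+), RAB29 chr1:205775483-205775732 (-), RAB40B chr17:82698699-82698948 (-) and RAB17 chr2:237590735-237590984 (-). Capitals mark 2 motifs, the GC box GGGCGG, which on the other strand reads CCGCCC, and the E-box CACGTG.
RAB21: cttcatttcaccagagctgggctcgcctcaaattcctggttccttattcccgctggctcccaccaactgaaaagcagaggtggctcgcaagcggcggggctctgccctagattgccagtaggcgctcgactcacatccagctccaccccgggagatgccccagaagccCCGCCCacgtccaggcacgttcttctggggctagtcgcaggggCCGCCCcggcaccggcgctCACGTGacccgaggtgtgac
RAB10: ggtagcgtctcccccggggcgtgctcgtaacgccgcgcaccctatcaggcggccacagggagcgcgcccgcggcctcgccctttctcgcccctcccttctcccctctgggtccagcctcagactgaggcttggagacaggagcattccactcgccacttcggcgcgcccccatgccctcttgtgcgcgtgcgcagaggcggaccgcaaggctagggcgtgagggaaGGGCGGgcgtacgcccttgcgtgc
RAB22A: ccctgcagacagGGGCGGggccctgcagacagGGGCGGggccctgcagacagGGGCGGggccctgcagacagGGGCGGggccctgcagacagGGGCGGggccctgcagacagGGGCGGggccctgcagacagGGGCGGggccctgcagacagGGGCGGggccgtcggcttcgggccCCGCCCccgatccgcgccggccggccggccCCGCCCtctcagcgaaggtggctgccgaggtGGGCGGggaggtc
RAB7A: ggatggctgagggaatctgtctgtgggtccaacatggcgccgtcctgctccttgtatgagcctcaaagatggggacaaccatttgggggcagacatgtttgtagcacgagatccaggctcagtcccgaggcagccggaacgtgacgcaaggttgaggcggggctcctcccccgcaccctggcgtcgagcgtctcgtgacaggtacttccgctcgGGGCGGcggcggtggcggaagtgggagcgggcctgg
RAB29: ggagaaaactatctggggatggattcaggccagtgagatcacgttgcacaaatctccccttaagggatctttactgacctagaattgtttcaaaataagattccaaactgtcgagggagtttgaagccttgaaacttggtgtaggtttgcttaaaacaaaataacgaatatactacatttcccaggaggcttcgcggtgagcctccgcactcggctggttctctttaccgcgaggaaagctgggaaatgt
RAB40B: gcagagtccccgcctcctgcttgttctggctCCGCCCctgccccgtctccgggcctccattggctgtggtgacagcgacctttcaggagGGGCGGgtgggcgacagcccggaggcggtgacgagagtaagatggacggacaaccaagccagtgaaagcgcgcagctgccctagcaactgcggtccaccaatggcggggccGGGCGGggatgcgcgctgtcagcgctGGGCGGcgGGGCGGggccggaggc
RAB17: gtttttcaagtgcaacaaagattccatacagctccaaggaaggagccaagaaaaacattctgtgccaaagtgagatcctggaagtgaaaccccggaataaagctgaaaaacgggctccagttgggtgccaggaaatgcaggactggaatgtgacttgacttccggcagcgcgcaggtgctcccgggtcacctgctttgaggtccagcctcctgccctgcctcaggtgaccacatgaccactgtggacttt
The first 4 genes rose and the last 3 fell. RAB22A holds 11 GC boxes, most of them in a short tandem repeat, RAB40B 5, RAB21 2, RAB10 and RAB7A 1 each, and RAB29 and RAB17 none. The only E-box of the 7 windows is in RAB21. Bases G and C made up 80.8% of the RAB22A window and 71.2% of those of RAB10 and RAB40B. They made up 64.8% of the RAB21 and RAB7A windows, 52.8% of that of RAB17 and 45.2% of that of RAB29.

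The RefSeq table held 48 of the 61 RAB genes, 37 of the 45 tested ones, with 1 or more starts each. GGGCGG on either strand occurred in 27 of 29 windows (23 genes) of RAB genes that rose and in 6 of 12 windows (7 genes) of those that fell, against 64% of 12945 windows of tested genes and 42.6% of all 35116 windows. The median share of G and C was 66.8% in the first, 55.2% in the second and 64.8% in windows of tested genes. CACGTG, whose core many helix-loop-helix factors bind, occurred in 3 windows of genes that rose (RAB21, RAB4A and RAB5A) and in 0 of those that fell, against 8.3% in windows of tested genes. TGACNNNGC, the core of the antioxidant response element, occurred in 7 windows of genes that rose (RAB5A, RAB5B, RAB5C, RAB8B, RAB32 and RAB40C) and in 1 of those that fell (RAB40B), against 12%. TGATGNAA, part of the amino acid response element, occurred in none of these windows, against 1.66%. All were searched on both strands. Starts of 1 gene can overlap, and a match of letters describes the sequence and shows no binding.

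Among genes of secretory granules RAB26 changed most. RAB26, which acts on granules of exocrine cells, was at 4.16, 2.04 and 4.39 FPKM in the YM155 libraries, against 36.2, 37.3 and 35.8 FPKM in the DMSO libraries. Every YM155 library lay far below every DMSO library. It fell 10.3-fold (log2 fold change -3.09, SE 0.19, adjusted p = 4.1e-07). With YM155 its mean lay between those of RAB27B and RAB3B, whereas with DMSO it was the most abundant granule RAB gene. RAB3D, found on granules of exocrine cells, was at 4.38, 4.33 and 4.33 FPKM in the YM155 libraries, against 9.97, 9.74 and 10.7 FPKM in the DMSO libraries. It fell 2.33-fold (log2 fold change -1.06, SE 0.061, adjusted p = 3.1e-07), with a spread of only 0.0284 FPKM (SD) between the YM155 libraries.

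Other granule genes were scarce. RAB27A, which docks granules and melanosomes at the plasma membrane, was at 0.724, 0.808 and 0.942 FPKM in the YM155 libraries, against 2.57, 1.94 and 2.45 FPKM in the DMSO libraries, and fell 2.81-fold (log2 fold change -0.86, SE 0.097, adjusted p = 2.7e-05). RAB27B, its close paralog, was at 2.62, 3.33 and 3.20 FPKM in the YM155 libraries, against 2.79, 2.09 and 2.55 FPKM in the DMSO libraries. Those groups overlap, and RAB27B did not pass (log2 fold change 0.22, SE 0.10, adjusted p = 0.071), but it was called higher with quantile and loess scaling (0.48 and 0.53), without YM155 replicate 1 (0.30) and without DMSO replicate 1 (0.29), while its sign turned with upper-quartile and common-sum scaling (-0.034 and -0.015, or 0.25 and 0.24 after subtracting the median over all genes). RAB37, of secretory granules, was at 0.720, 0.433 and 0.698 FPKM in the YM155 libraries, against 1.99, 1.88 and 1.77 FPKM in the DMSO libraries, and fell 3.05-fold (log2 fold change -0.84, SE 0.094, adjusted p = 2.6e-05). RAB3A, known from synaptic vesicles, was at 1.06, 0.989 and 1.53 FPKM in the YM155 libraries, against 2.09, 1.996 and 2.61 FPKM in the DMSO libraries, and fell 1.87-fold (log2 fold change -0.56, SE 0.12, adjusted p = 0.0014), a call that ended with quantile normalization and cyclic loess (-0.23 and -0.14). RAB3B alone of the granule genes rose, at 3.31, 3.84 and 3.77 FPKM in the YM155 libraries, against 1.84, 1.95 and 1.94 FPKM in the DMSO libraries (1.91-fold, log2 fold change 0.67, SE 0.075, adjusted p = 2.5e-05). RAB3C was at 0 in every library but DMSO replicate 3, where it was at 0.0506 FPKM.

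The summed goblet cell markers were also lower with YM155, though MUC2 was not. The 8 goblet markers (MUC2, TFF3, SPINK4, FCGBP, SPDEF, AGR2, REG4 and CLCA1) summed to 718 to 851 FPKM in the YM155 libraries and to 1439 to 1514 FPKM in the DMSO libraries. AGR2, at 549 to 637 FPKM with YM155 and 726 to 759 FPKM with DMSO, and SPINK4, at 46.3 to 61.2 FPKM with YM155 and 452 to 483 FPKM with DMSO, carried most of that sum. MUC2, the main gel-forming mucin of goblet cells, was at 15.5 to 17.9 FPKM with YM155 and 5.38 to 6.72 FPKM with DMSO. Of the 8, 7 were at 1 FPKM or more in both groups and CLCA1 was near 0. The 6 enteroendocrine markers summed to 0.506 to 0.847 FPKM with YM155 and 1.18 to 1.35 FPKM with DMSO, with CHGB and NEUROD1 at 0 throughout, and the 6 enterocyte markers to 0.287 to 0.354 FPKM with YM155 and 0.521 to 0.835 FPKM with DMSO. The part of these cell states in the fall of granule RAB genes was not tested. In bulk RNA fewer cells of a type and less RNA per cell cannot be told apart.

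**Figure D2:**
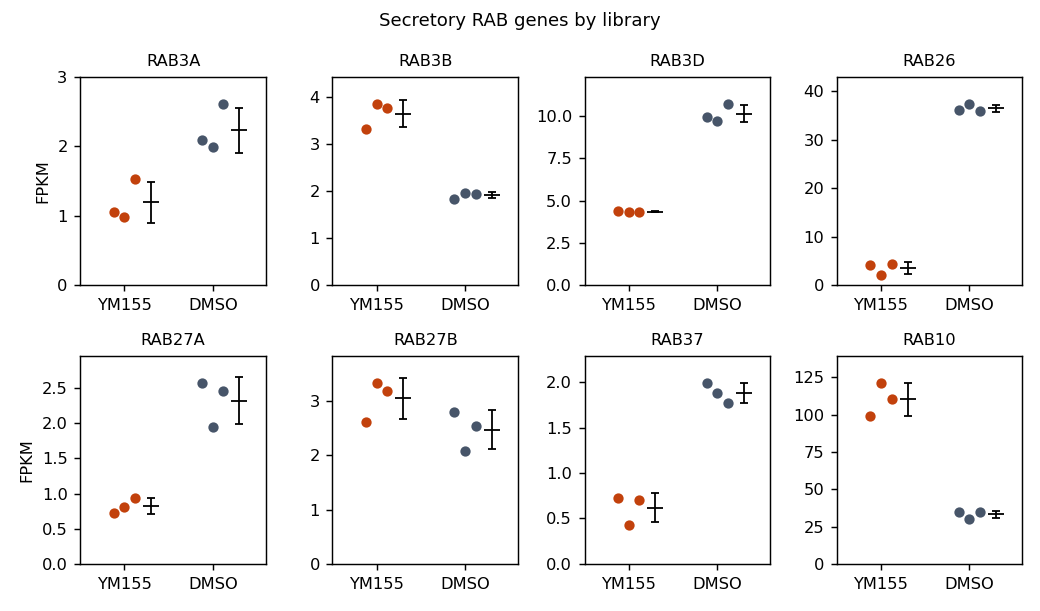
FPKM (y axis, from 0, its own scale in each panel) of 7 granule RAB genes and of RAB10 in the 3 YM155 and 3 DMSO libraries (x axis), with points for libraries and a bar for the mean with its SD. RAB26 is at 2.04 to 4.39 FPKM with YM155 and 35.8 to 37.3 FPKM with DMSO, and RAB27B is the panel in which the groups overlap.

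Of the 4 genes of delivery to the surface, RAB10 rose most. RAB10, which drives basolateral and regulated exocytosis, was at 98.7, 121 and 111 FPKM in the YM155 libraries, against 34.7, 30.3 and 34.5 FPKM in the DMSO libraries. All YM155 values were far above the highest DMSO value. It rose 3.32-fold (log2 fold change 1.70, SE 0.080, adjusted p = 8.8e-08). RAB13, of traffic to tight junctions, was the most abundant of the 4 under DMSO, at 46.9, 42.00 and 45.8 FPKM in the YM155 libraries, against 66.4, 72.7 and 72.5 FPKM in the DMSO libraries, and fell 1.57-fold (log2 fold change -0.64, SE 0.057, adjusted p = 5.5e-06), so that RAB10 exceeded it only with YM155. RAB8A, of apical and ciliary delivery, was at 22.3, 22.6 and 22.4 FPKM in the YM155 libraries, against 21.4, 22.9 and 23.6 FPKM in the DMSO libraries. The groups overlap and it did not pass on the deposited scale (log2 fold change -0.011, SE 0.051, adjusted p = 0.85), whereas with upper-quartile, common-sum, quantile and loess scaling it was called lower (log2 fold change -0.35, -0.32, -0.32 and -0.31, which after subtracting the median over all genes is -0.062, -0.061, -0.23 and -0.28). RAB8B, its scarcer paralog, was at 1.99, 2.49 and 2.58 FPKM in the YM155 libraries, against 1.40, 1.14 and 1.53 FPKM in the DMSO libraries, and rose 1.73-fold (log2 fold change 0.51, SE 0.10, adjusted p = 0.0011).

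All 6 tested genes of the early endosome rose, where 43.6% of all genes rose, and 59.1% of those with a mean of 20 to 50 FPKM. RAB21, which carries integrins inward, was at 26.8, 31.1 and 28.5 FPKM in the YM155 libraries, against 7.23, 7.37 and 8.86 FPKM in the DMSO libraries. No other RAB gene had a larger log2 fold change (3.68-fold, log2 fold change 1.76, SE 0.084, adjusted p = 9.3e-08). In GENCODE 29 it shares 1431 exonic bases with AC089984.1 on the opposite strand, and use of strand in quantification is not known here, which holds also for RAB3D (906 bases with AC011472.3), RAB8A (1018 with AC008894.2) and RAB6A (425 with AP002770.1). RAB22A, of sorting in the early endosome, was at 20.6, 22.6 and 21.5 FPKM in the YM155 libraries, against 8.10, 7.67 and 9.06 FPKM in the DMSO libraries, and rose 2.61-fold (log2 fold change 1.28, SE 0.069, adjusted p = 1.9e-07). The 3 RAB5 genes encode the paralogs that drive fusion of early endosomes. RAB5A was at 31.8, 37.5 and 35.9 FPKM in the YM155 libraries, against 15.04, 13.3 and 16.1 FPKM in the DMSO libraries, and rose 2.37-fold (log2 fold change 1.19, SE 0.082, adjusted p = 9.2e-07). RAB5C, the most abundant of the 3, was at 124, 122 and 115 FPKM in the YM155 libraries, against 70.1, 76.2 and 74.1 FPKM in the DMSO libraries, and rose 1.64-fold (log2 fold change 0.70, SE 0.049, adjusted p = 1.0e-06). RAB5B rose less, at 32.5, 33.2 and 33.7 FPKM in the YM155 libraries, against 28.5, 28.2 and 27.1 FPKM in the DMSO libraries (1.19-fold, log2 fold change 0.24, SE 0.044, adjusted p = 7.6e-04), and its sign turned with upper-quartile, common-sum, quantile and loess scaling (-0.099, -0.074, -0.12 and -0.087). With quantile normalization it was called lower, and with the first and second it was at 0.18 and 0.19 after subtracting the median. RAB20, described on endosomes and phagosomes, was at 44.9, 43.5 and 43.2 FPKM in the YM155 libraries, against 33.04, 36.4 and 34.9 FPKM in the DMSO libraries (1.26-fold, log2 fold change 0.33, SE 0.049, adjusted p = 1.8e-04), and its sign turned with upper-quartile, quantile and loess scaling (-0.013, or 0.27 after subtracting the median, -0.061 and -0.0064). RAB31 was listed at 0 in 3 of 6 libraries and was under 0.05 FPKM in the others.

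Of the 4 tested genes of the late endosome 3 rose (43.6% of all genes). RAB7A, which directs late endosomes and autophagosomes to the lysosome, was the most abundant RAB gene with YM155, at 314, 329 and 329.6 FPKM in the YM155 libraries, against 136, 135 and 144 FPKM in the DMSO libraries. The lowest YM155 value was far above the highest DMSO value. It rose 2.35-fold (log2 fold change 1.22, SE 0.044, adjusted p = 1.7e-08). RAB9A, of return from late endosomes to the trans-Golgi, was at 15.5, 15.5 and 15.8 FPKM in the YM155 libraries, against 7.43, 9.25 and 7.90 FPKM in the DMSO libraries, and rose 1.90-fold (log2 fold change 0.86, SE 0.076, adjusted p = 5.2e-06). RAB32, of lysosome-related organelles, was at 4.70, 4.80 and 5.38 FPKM in the YM155 libraries, against 1.72, 2.34 and 2.16 FPKM in the DMSO libraries, and rose 2.39-fold (log2 fold change 0.96, SE 0.093, adjusted p = 9.7e-06), while its paralog RAB38 stayed under 0.1 FPKM in every library. RAB24, associated with autophagy, was at 17.7, 15.9 and 14.4 FPKM in the YM155 libraries, against 15.2, 16.7 and 16.7 FPKM in the DMSO libraries. Those values overlap and did not pass on the deposited scale (log2 fold change -0.019, SE 0.077, adjusted p = 0.82), whereas with upper-quartile, common-sum, quantile and loess scaling RAB24 was called lower (-0.35, -0.32, -0.26 and -0.25). After subtracting the median over all genes it was at -0.065 and -0.064 with the first and second of these, -0.044 as deposited, and -0.18 and -0.23 with the others.

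**Figure D3:**
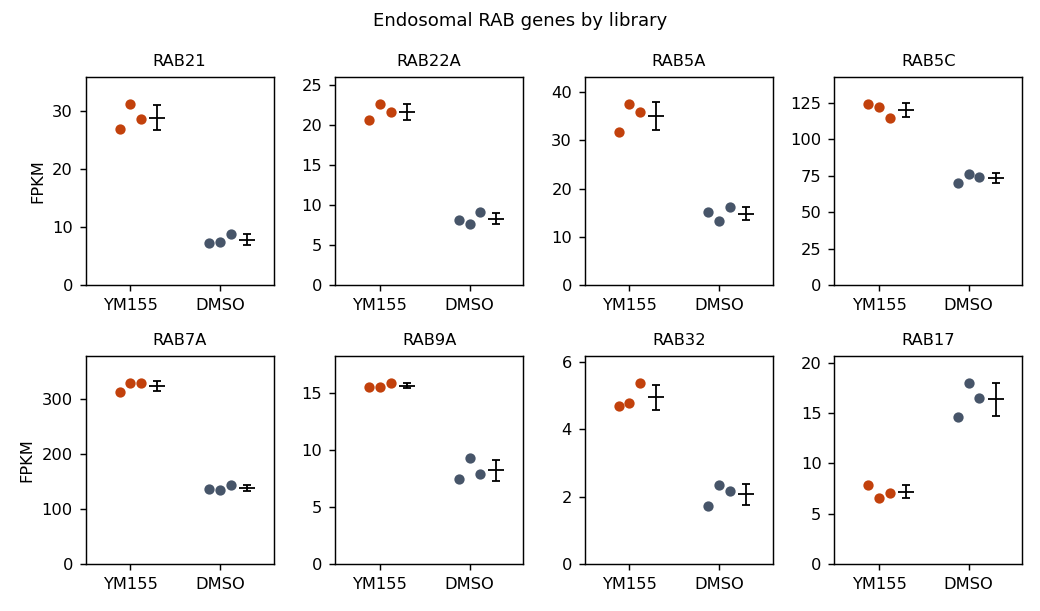
FPKM (y axis, from 0, its own scale in each panel) of 8 endosomal RAB genes in the 3 YM155 and 3 DMSO libraries (x axis), with points for libraries and a bar for the mean with its SD. In 7 panels every YM155 library lies above every DMSO library, as in RAB7A (314 to 329.6 against 135 to 144 FPKM), and in that of RAB17 every YM155 library lies below.

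Recycling genes lay on both sides. Of 10 tested, 7 rose and 2 fell (43.6% and 41% of all genes). Their median log2 fold change was 0.32, against 0.95 in the early and 0.91 in the late genes. With upper-quartile scaling the same medians were -0.0075, 0.61 and 0.62. RAB25, the epithelial relative of RAB11, was the most abundant, at 156, 149 and 151 FPKM in the YM155 libraries, against 127, 144 and 122 FPKM in the DMSO libraries. Its rise was 1.16-fold (log2 fold change 0.21, SE 0.061, adjusted p = 0.0094). The sign turned with upper-quartile, common-sum, quantile and loess scaling (-0.13, -0.11, -0.24 and -0.14). With quantile and loess scaling it was called lower, and with the other two it was at 0.15 and 0.15 after subtracting the median, against 0.19 as deposited. RAB11B, of the recycling endosome, was at 70.7, 68.2 and 61.96 FPKM in the YM155 libraries, against 35.9, 34.97 and 34.02 FPKM in the DMSO libraries, and rose 1.91-fold (log2 fold change 0.92, SE 0.056, adjusted p = 4.4e-07). RAB11A was at 34.3, 34.98 and 36.5 FPKM in the YM155 libraries, against 34.3, 32.5 and 34.4 FPKM in the DMSO libraries, overlapping, and did not pass on the deposited scale (log2 fold change 0.062, SE 0.047, adjusted p = 0.25), whereas with upper-quartile, common-sum, quantile and loess scaling it was called lower (-0.28, -0.25, -0.31 and -0.27). After subtracting the median it was at 0.0052 and 0.0072 with the first and second, and -0.23 and -0.25 with the others. The part of RAB11B-AS1, antisense to RAB11B with 258 exonic bases in common, was not tested, and its row fell (2.31 ± 0.625 FPKM with YM155 against 5.74 ± 0.583 FPKM with DMSO, adjusted p = 7.4e-05) where RAB11B rose.

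RAB17, an epithelial RAB of recycling and transcytosis, was at 7.85, 6.56 and 7.10 FPKM in the YM155 libraries, against 14.7, 18.01 and 16.5 FPKM in the DMSO libraries. It fell 2.29-fold (log2 fold change -1.09, SE 0.087, adjusted p = 2.5e-06), the largest fall among endosomal genes. RAB15, of the recycling endosome, was at 32.4, 29.1 and 29.5 FPKM with YM155 against 33.8, 35.3 and 34.6 FPKM with DMSO, a small fall of 1.14-fold (log2 fold change -0.19, SE 0.053, adjusted p = 0.0091). The others rose between 1.25-fold and 1.72-fold. RAB4A and RAB4B, of rapid return to the surface, averaged 18.9 ± 1.49 FPKM with YM155 against 15.2 ± 0.983 FPKM with DMSO and 30.5 ± 2.73 FPKM with YM155 against 17.7 ± 0.837 FPKM with DMSO (SD, n = 3 each), and the sign of RAB4A turned with upper-quartile and common-sum scaling (-0.028 and -0.0036, or 0.25 and 0.26 after subtracting the median, against 0.28 as deposited). RAB14, between Golgi and endosomes, averaged 35.2 ± 3.01 FPKM with YM155 against 20.8 ± 2.29 FPKM with DMSO, RAB35, of recycling and cytokinesis, 29.4 ± 1.09 FPKM with YM155 against 20.6 ± 1.27 FPKM with DMSO, and RAB12 17.8 ± 0.799 FPKM with YM155 against 13.9 ± 1.63 FPKM with DMSO. The call of RAB12 ended with upper-quartile, common-sum, quantile and loess scaling (0.013, 0.037, 0.10 and 0.11). After subtracting the median it was at 0.30 and 0.30 with the first and second, against 0.32 as deposited. Reads of RAB4B can be shared with the read-through rows MIA-RAB4B and RAB4B-EGLN2, which were at most 1.31 and 0.942 FPKM in any library.

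Of the Golgi genes RAB6A rose and RAB29 fell by more than a log2 fold change of 1. RAB6A, of retrograde traffic from and through the Golgi, was at 95.7, 104 and 106 FPKM in the YM155 libraries, against 42.8, 39.7 and 46.2 FPKM in the DMSO libraries. The groups are far apart, and it rose 2.38-fold (log2 fold change 1.23, SE 0.064, adjusted p = 1.6e-07). Its near-identical retrocopy RAB6C was under 0.05 FPKM in every library and RAB6B under 0.3. RAB29, of the trans-Golgi network, was at 4.43, 4.36 and 4.89 FPKM in the YM155 libraries, against 10.6, 11.7 and 11.8 FPKM in the DMSO libraries, and fell 2.49-fold (log2 fold change -1.15, SE 0.070, adjusted p = 4.1e-07). RAB1B, of transport from the ER to the Golgi, was the most abundant Golgi RAB gene, at 175, 171 and 166 FPKM in the YM155 libraries, against 137, 144 and 142 FPKM in the DMSO libraries. It rose 1.21-fold (log2 fold change 0.28, SE 0.041, adjusted p = 1.7e-04), and its sign turned with upper-quartile, common-sum, quantile and loess scaling (-0.071, -0.045, -0.18 and -0.071). With quantile normalization it was called lower, and with the first and second it was at 0.21 and 0.21 after subtracting the median. RAB1A was at 59.9, 75.5 and 70.98 FPKM in the YM155 libraries, against 61.5, 55.8 and 64.7 FPKM in the DMSO libraries. Those values overlap and did not pass (log2 fold change 0.18, SE 0.087, adjusted p = 0.089), and without YM155 replicate 1, the lowest of its group, RAB1A was called higher (0.27). Its sign, too, turned with those 4 settings (-0.17, -0.14, -0.26 and -0.17). It was called lower with quantile normalization and was at 0.11 and 0.12 with the first and second after subtracting the median.

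RAB33B, which links the Golgi to autophagy, averaged 5.90 ± 0.826 FPKM with YM155 against 2.71 ± 0.297 FPKM with DMSO, and rose 2.18-fold (log2 fold change 0.89, SE 0.10, adjusted p = 3.3e-05). RAB2A and RAB2B, of return from the Golgi to the ER, averaged 40.4 ± 2.50 FPKM with YM155 against 29.6 ± 3.39 FPKM with DMSO and 8.10 ± 0.552 FPKM with YM155 against 4.69 ± 0.181 FPKM with DMSO (adjusted p = 8.8e-04 and adjusted p = 1.3e-05), and the call of RAB2A ended with upper-quartile, common-sum, quantile and loess scaling (0.10, 0.13, 0.065 and 0.11). After subtracting the median it was at 0.38 and 0.39 with the first and second, against 0.42 as deposited. RAB30, of the Golgi, was at 1.68, 1.91 and 2.07 FPKM in the YM155 libraries, against 2.002, 1.87 and 2.11 FPKM in the DMSO libraries, and RAB43 was at 8.63, 7.18 and 5.98 FPKM in the YM155 libraries, against 7.22, 7.76 and 7.28 FPKM in the DMSO libraries. In both the groups overlap and the test was not passed (log2 fold change -0.054, SE 0.081, adjusted p = 0.54, and log2 fold change -0.039, SE 0.11, adjusted p = 0.75). With upper-quartile scaling both were called lower (-0.28 and -0.35), but after subtracting the median over all genes they were at -0.0015 and -0.063. With quantile and loess scaling RAB30 was called higher (0.27 and 0.33). Reads of RAB43 cannot be told from those of the read-through row ISY1-RAB43, with which it shares 3956 exonic bases and which was at 13.6 ± 0.465 FPKM with YM155 against 13.9 ± 0.159 FPKM with DMSO.

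Of the RAB genes outside these classes RAB23, a negative regulator of Hedgehog signalling, rose 2.28-fold (5.34 ± 0.507 FPKM with YM155 against 2.34 ± 0.219 FPKM with DMSO, adjusted p = 7.3e-06). It shares 2842 exonic bases with BAG2 on the opposite strand. RAB40B and RAB40C, which carry a SOCS box and serve ubiquitin ligases, moved apart. RAB40B was at 4.07, 3.34 and 4.53 FPKM in the YM155 libraries, against 9.46, 9.41 and 10.5 FPKM in the DMSO libraries, and fell 2.46-fold (log2 fold change -1.12, SE 0.095, adjusted p = 3.8e-06). RAB40C was at 25.4, 27.4 and 24.4 FPKM in the YM155 libraries, against 16.97, 17.6 and 16.95 FPKM in the DMSO libraries, and rose 1.5-fold (log2 fold change 0.56, SE 0.055, adjusted p = 1.1e-05). RAB18, of lipid droplets and the ER, averaged 10.02 ± 1.45 FPKM with YM155 against 6.79 ± 0.913 FPKM with DMSO (adjusted p = 0.003), a call that ended with upper-quartile and common-sum scaling (0.19 and 0.21, or 0.47 and 0.47 after subtracting the median, against 0.48 as deposited). RAB28, known from photoreceptor cilia, was at 4.61, 5.66 and 5.21 FPKM with YM155 against 6.07, 5.03 and 5.81 FPKM with DMSO, overlapping, and did not pass (log2 fold change -0.11, SE 0.090, adjusted p = 0.28), but was called lower with upper-quartile and common-sum scaling (-0.40 and -0.38, or -0.12 and -0.12 after subtracting the median) and turned in sign with loess (0.031). Of the 16 RAB genes not tested, 14 were under 0.5 FPKM in every library. The other two were RAB19, at 0.436, 0.149 and 0.684 FPKM with YM155 against 0.929, 1.17 and 0.708 FPKM with DMSO, and RAB36, at 0.307, 0.262 and 0.266 FPKM with YM155 against 0.689, 0.605 and 0.542 FPKM with DMSO.

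Related genes were also compared within each library. Of RAB27A plus RAB27B, RAB27A made up 21.6%, 19.5% and 22.8% in the YM155 libraries, against 47.9%, 48.2% and 49.05% in the DMSO libraries. Of RAB3D plus RAB3B, RAB3D made up 56.98%, 53.01% and 53.4% in the YM155 libraries, against 84.4%, 83.3% and 84.7% in the DMSO libraries. RAB11A made up 32.6%, 33.9% and 37.1% in the YM155 libraries, against 48.9%, 48.1% and 50.3% in the DMSO libraries of RAB11A plus RAB11B. In each of these pairs the groups do not overlap. RAB5B made up 50.6%, 47.02% and 48.4% in the YM155 libraries, against 65.5%, 67.99% and 62.8% in the DMSO libraries of RAB5A plus RAB5B, and RAB40B made up 13.8%, 10.8% and 15.7% in the YM155 libraries, against 35.8%, 34.9% and 38.2% in the DMSO libraries of RAB40B plus RAB40C. Within-library log2 ratios of the first to the second gene differed between YM155 and DMSO by -1.79, -2.15, -0.87, -1.0 and -1.89 in these pairs, by -1.85 in RAB3A to RAB3B, -0.80 in RAB8A to RAB8B and -1.81 in RAB26 to RAB37. The 8 pairs were chosen and their genes ordered with the values known, and RAB27A and RAB37 entered through their DMSO values, so the direction of these differences was set by the choice and they are given as a description with no test. Such ratios do not depend on scaling factors of whole libraries.

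**Figure D4:**
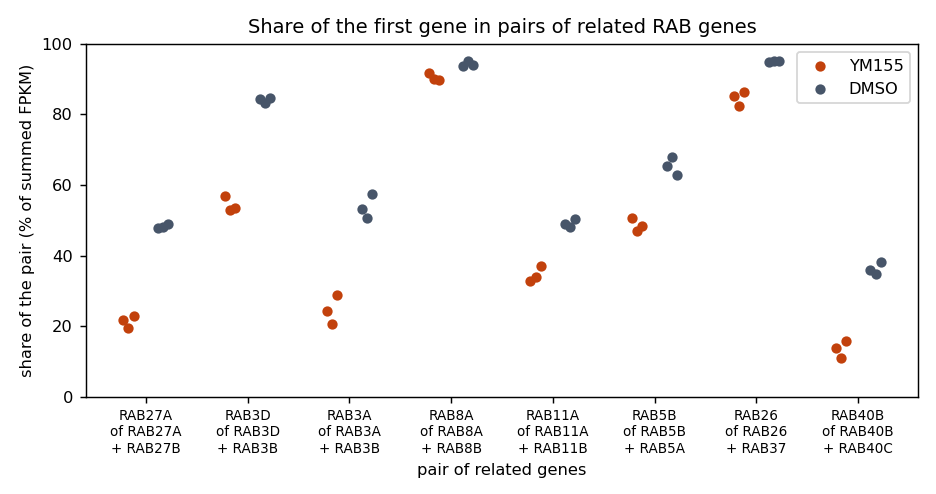
Share of the first gene in the summed FPKM of 8 pairs of related RAB genes (y axis, percent) in the 3 YM155 and 3 DMSO libraries, pair by pair (x axis), with points for libraries. The pairs and the order within each were chosen with the values known, and the YM155 points lie below the DMSO points, as for RAB3D of RAB3D plus RAB3B (53.01% to 56.98% with YM155 and 83.3% to 84.7% with DMSO).

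Summed over genes, granule RAB messages were at 16.97, 15.8 and 18.9 FPKM in the YM155 libraries, against 57.5, 56.9 and 57.9 FPKM in the DMSO libraries, 0.2997 times the DMSO level. RAB26 made most of the DMSO sum. Without RAB26 the sums were 12.8, 13.7 and 14.5 FPKM in the YM155 libraries, against 21.2, 19.6 and 22.1 FPKM in the DMSO libraries. Late endosomal RAB messages summed to 352, 366 and 365 FPKM in the YM155 libraries, against 160.1, 163 and 171 FPKM in the DMSO libraries (2.19 times), mostly from RAB7A, early endosomal ones to 283 ± 6.38 FPKM with YM155 and 167 ± 4.44 FPKM with DMSO (SD, n = 3 each; 1.69 times), recycling ones to 423 ± 5.93 FPKM with YM155 and 339 ± 8.40 FPKM with DMSO (1.25 times), and Golgi ones to 411 ± 13.04 and 304 ± 10.2 FPKM (1.35 times). The summed FPKM of all genes was 1.25 times the DMSO level in the same libraries, about the ratio of the recycling genes. Endosomal genes made up 61.9% ± 0.758 of RAB FPKM with YM155 and 55.8% ± 0.809 with DMSO, recycling genes 24.6% ± 0.716 with YM155 and 28.2% ± 0.864 with DMSO, and granule genes 0.998% ± 0.0984 and 4.78% ± 0.0743. All RAB genes together made up 0.252% ± 0.00810 of the FPKM of a YM155 library and 0.220% ± 0.00722 of that of a DMSO library.

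**Figure D5:**
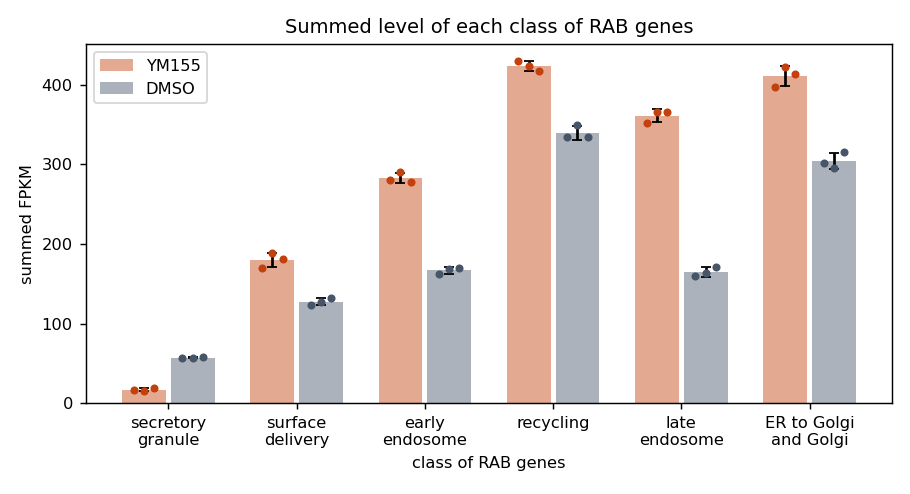
Summed FPKM (y axis, from 0) of the RAB genes of each class (x axis) in the YM155 and DMSO libraries, with bars for means of 3 libraries and their SD and points for libraries. The granule sum is lower with YM155 (15.8 to 18.9 against 56.9 to 57.9 FPKM) and the other 5 sums are higher, that of the recycling genes by 1.25 times, against 1.25 times for all genes.

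Genes for loading and recycling of RAB proteins were counted against all genes, of which 43.6% rose and 41% fell. Of 8 genes of prenylation and recycling 7 rose and 1 fell. RABGGTB, the beta subunit of RAB geranylgeranyl transferase, whose gene also hosts small nucleolar RNAs, was at 219, 223 and 217 FPKM in the YM155 libraries, against 45.1, 45.2 and 47.7 FPKM in the DMSO libraries, and rose 4.77-fold (log2 fold change 2.23, SE 0.041, adjusted p = 4.1e-10). GDI2, a GDP dissociation inhibitor, averaged 223 ± 7.72 FPKM with YM155 against 174 ± 3.97 FPKM with DMSO (1.28-fold, adjusted p = 3.8e-05). RABAC1, a membrane receptor for prenylated RAB proteins, was the one that fell (log2 fold change -0.53).

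Of 37 tested GEF genes 28 rose and 4 fell, with a median log2 fold change of 0.62, and of 31 GAP genes 18 rose and 12 fell, with a median of 0.23 (0.024 over all genes). The largest falls were those of DENND2B among GEFs (log2 fold change -1.16) and SGSM2 among GAPs (-1.66). RAB3GAP1, a subunit of the GEF complex of RAB18 that also acts on RAB3, averaged 53.4 ± 1.27 FPKM with YM155 against 18.97 ± 0.570 FPKM with DMSO (2.81-fold, adjusted p = 7.9e-09). SBF1, of the DENN domain family, rose 3.23-fold (26.95 ± 2.16 FPKM with YM155 against 8.33 ± 0.311 FPKM with DMSO, adjusted p = 4.5e-08) and DENND4B, a GEF of RAB10, 2.34-fold (19.9 ± 0.280 FPKM with YM155 against 8.53 ± 0.234 FPKM with DMSO, adjusted p = 6.0e-08). Among GAPs TBC1D22B rose 4.06-fold (16.3 ± 0.216 FPKM with YM155 against 4.03 ± 0.133 FPKM with DMSO, adjusted p = 7.4e-09), TBC1D2, a GAP of RAB7, 2.76-fold (15.9 ± 0.319 FPKM with YM155 against 5.78 ± 0.109 FPKM with DMSO, adjusted p = 3.2e-08), and TBC1D25, which acts on RAB33B, 2.54-fold (13.9 ± 0.604 FPKM with YM155 against 5.47 ± 0.166 FPKM with DMSO, adjusted p = 1.1e-07). Of 2 tested genes that set RAB phosphorylation, the kinase gene LRRK1 rose 1.80-fold (adjusted p = 7.0e-06) and the phosphatase gene PPM1H fell 1.83-fold (adjusted p = 2.5e-05).

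Effectors of every class included large rises, those of granule RAB proteins too. The secretory list joins effectors of granule and of surface RAB proteins. Those of surface RAB proteins (MICALL1, MICALL2, EXOC6 and OPTN) all rose. Granule effectors either rose (MLPH, UNC13D, EXPH5 and RPH3AL) or fell (the 4 SYTL genes named below). Of 12 tested secretory effectors 8 rose and 4 fell, of 20 endosomal ones 12 rose and 6 fell, and of 11 Golgi ones 9 rose and 1 fell, beside 43.6% and 41% of all genes. MICALL1, which binds RAB8, RAB13 and RAB35, was at 64.1, 69.8 and 63.1 FPKM in the YM155 libraries, against 3.83, 4.02 and 3.83 FPKM in the DMSO libraries, and rose 16.9-fold (log2 fold change 3.77, SE 0.056, adjusted p = 1.8e-10). EXPH5, also named Slac2-b and a RAB27 effector, was at 36.98, 44.02 and 43.9 FPKM in the YM155 libraries, against 3.44, 3.41 and 3.35 FPKM in the DMSO libraries, and rose 12.2-fold (log2 fold change 3.27, SE 0.074, adjusted p = 1.2e-09). UNC13D, of granule priming with RAB27A, averaged 22.1 ± 1.45 FPKM with YM155 against 4.96 ± 0.260 FPKM with DMSO (4.45-fold, adjusted p = 1.3e-08). The 4 secretory effectors that fell, named after their values were seen, were the synaptotagmin-like genes SYTL1, SYTL2, SYTL4 and SYTL5, whose proteins bind RAB27 (log2 fold change -0.27, -1.02, -0.54 and -0.74).

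MYO5B, the motor of apical recycling with RAB11, was at 68.3, 78.7 and 72.6 FPKM in the YM155 libraries, against 8.33, 9.07 and 8.68 FPKM in the DMSO libraries. No value of one group came near the other, and it rose 8.42-fold (log2 fold change 2.93, SE 0.062, adjusted p = 8.4e-10). RAB11FIP5, which binds RAB11, averaged 19.7 ± 0.281 FPKM with YM155 against 3.56 ± 0.247 FPKM with DMSO (5.53-fold, adjusted p = 4.0e-09), and PLEKHM1, which ties RAB7 to lysosome fusion, averaged 27.5 ± 1.13 FPKM with YM155 against 6.02 ± 0.309 FPKM with DMSO (4.57-fold, adjusted p = 4.9e-09). The largest fall among endosomal effectors was that of VPS45 (log2 fold change -1.21). At the Golgi BICD2, a dynein adaptor bound by RAB6, rose 2.52-fold (15.8 ± 0.743 FPKM with YM155 against 6.27 ± 0.291 FPKM with DMSO, adjusted p = 1.4e-07), and the matrix proteins GOLGA2 and GORASP2 rose 1.96-fold and 1.55-fold (adjusted p = 1.5e-07 and adjusted p = 1.1e-06). Over all 7 lists 83 of 121 tested genes rose and 29 fell (43.6% and 41% of all genes), and with upper-quartile scaling 60 rose and 39 fell (31.3% and 54.7% of all genes).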

How the data were processed

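Messenger RNA of 3 YM155 and 3 DMSO libraries of HT29 cells was sequenced from a stranded kit, per the labels' protocols. For each library the authors deposited FPKM values by gene. The submitters' processing notes name genome build hg19 and Cuffdiff, Cufflinks 2.2.1, TopHat2 2.1.1, SAMtools 1.2 and Bowtie2 2.3.5.1. Settings, annotation, use of strand and the library size behind the scaling are not given in the sources used. Depth is unknown, and the steps between low values depend on that library size, so no counts or counting intervals are given.

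Genes that reached 1 FPKM in 3 or more of the 6 libraries were compared with limma 3.58.1 in R 4.3.3 on log2(FPKM + 1), by a two-sided moderated test with a mean-variance trend. The p-values were adjusted over all 12035 genes (Benjamini-Hochberg) and called under 0.05. This scale understates the change of scarce genes. Folds are ratios of mean FPKM. The fit was tested on simulated data. Python 3.11.15 made the tables. Groups and replicate numbers came from the labels.

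The RAB genes, classes, lists and markers were chosen with earlier results of these data known. All RAB genes are accounted for. Values per library are given for changed genes with a log2 fold change of at least 1 in size and for genes that did not pass. They are also given for paralogs that differ and for the 2 most abundant of each class, except the class of other genes. From each list up to 3 genes with the lowest p and at least 5 FPKM are named, with values per library, means with SD or folds. Others were named after their values were seen. One listed gene is not reported here. Overlapping exons come from GENCODE 29 and involve 18 of the 45 tested RAB genes, 15 of them on the opposite strand. Overlaps on the same strand include RAB13 with AL358472.6 (682 bases), RAB4A with SPHAR (648) and RAB5C with AC099811.2 (553). DENND2B was matched by its older symbol ST5. Alternatives were 4 scalings (median of ratios, upper quartile, common sum and quantile), other pseudocounts (0.1 and 0.5), testing without a filter or from a mean of 5 FPKM up, no trend, a replicate block, each library left out, a threshold of 0.01, core classes and, added after seeing the data, cyclic loess.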

Additional observations from a re-analysis of the deposited data

How the results depend on the processing

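Of 37 changed RAB genes, 32 kept their sign and 28 kept their call and sign in all settings in which they were tested. Only 35 of the 45 RAB genes were tested with a mean of at least 5 FPKM. RAB27A and RAB37 were tested neither there nor in the 3 settings without a DMSO library. The fall count of all RAB genes was 10 as deposited and 16 with upper-quartile, common-sum and quantile scaling each. With upper-quartile and with common-sum scaling 3 Golgi genes rose, 3 fell and 4 endosomal genes fell, against 5, 1 and 2 as deposited. With quantile normalization 3 Golgi and 6 endosomal genes fell, and with cyclic loess 5 endosomal genes fell. Without a filter 5 Golgi genes fell. With a mean FPKM of at least 5, 1 secretory gene rose and 3 fell, against 3 and 6. In the core classes 1 secretory gene rose, and 0 endosomal and 0 Golgi genes fell (limma; the dropped members are the cause). Signs turned for these genes, with values for upper-quartile, common-sum, quantile and loess scaling in that order: RAB11A -0.28, -0.25, -0.31, -0.27, RAB1A -0.17, -0.14, -0.26, -0.17, RAB1B -0.071, -0.045, -0.18, -0.071, RAB25 -0.13, -0.11, -0.24, -0.14 and RAB5B -0.099, -0.074, -0.12, -0.087. RAB20 was at -0.013, -0.061 and -0.0064 with upper-quartile, quantile and loess scaling. RAB27B was at -0.034 and -0.015, and RAB4A at -0.028 and -0.0036, with upper-quartile and common-sum scaling. RAB30 was at 0.27 and 0.33 with quantile and loess scaling, and RAB28 at 0.031 with loess. Upper-quartile and common-sum scaling moved the median of all genes by -0.31 and -0.28, and after subtracting that median the genes that turned there kept their deposited sign (RAB4A 0.28 as deposited and 0.25 and 0.26, RAB27B 0.20 and 0.25 and 0.24, RAB25 0.19 and 0.15 and 0.15). For quantile and loess scaling the cause was not tested. With 1 library left out RAB24 lay at -0.089 to 0.049, RAB43 at -0.16 to 0.077 and RAB8A at -0.048 to 0.019, and 27 to 29 RAB genes rose and 8 to 10 fell. Libraries with the same replicate number did not deviate together (correlation -0.15 to -0.071). This cannot tell whether they were made as pairs, since pairs without a shared deviation would look the same. With a replicate block 27 RAB genes rose and 10 fell, as without it.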
